A study of Mus musculus with 16 samples.

Results

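Small RNAs of wild-type (WT) mouse tracheal epithelial cultures were compared between day 7 and day 4 after the culture surface was exposed to air, the interval in which these cultures begin to form multiciliated cells. The comparison used every WT library of those days, 2 at day 4 and 2 at day 7, 4 of the 16 libraries in the series. The remaining libraries came from WT cultures at days 0 and 14 and from p73 knockout (KO) cultures, whose mice lack p73 in the whole animal, at days 0, 4, 7 and 14, again 2 per group. The 4 KO libraries of days 4 and 7 were used beside the WT step. p73 messenger RNA was not measured in these small RNA libraries, so the knockout was not checked here. The cells were primary cultures grown on membranes from trachea, with the medium below and air above (an air-liquid interface). The age and sex of the mice are not given in the labels. The 2 libraries of a group were labelled replicates 2 and 3 and described by the submitters as biologically independent. Of 1264 small RNAs in the deposited table, after 5 duplicate rows were left out, 800 had a value at day 4 and 321 at both days: 180 miRNAs, 115 small nucleolar RNAs, 14 ribosomal RNA fragments, 5 piRNA-annotated RNAs, 5 small nuclear RNAs and 2 unnamed predicted miRNAs. A filter on low values, which asked for 10 or more in 2 or more of the 4 libraries, left 319 of them for the test.

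MicroRNAs guide silencing complexes to messenger RNAs mainly through the seed, bases 2 to 8 counted from the 5′ end, so miRNAs with 1 seed are grouped as a family. In airway epithelium, basal cells leave the cell cycle and make many basal bodies before they grow motile cilia, and the miR-34 and miR-449 families are known for promoting this by repressing, among others, cell cycle genes and the centriole-capping protein gene Cp110. Small nucleolar RNAs guide chemical modification of ribosomal and other RNAs, and most are cut from the introns of host genes, often genes of ribosomal proteins or of noncoding RNAs.

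The levels below are normalised read counts after 1 log2 shift per day, since each day had been normalised on its own. Recovered read totals were 472706 and 303391 in the day 4 libraries of replicates 2 and 3, and 996101 and 677569 at day 7. Across all 16 libraries totals ran from 197497 to 1777271. Changes are log2 differences from limma with their 95% intervals, and adjusted p are Benjamini-Hochberg values over all small RNAs tested.

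Of 319 small RNAs tested, 1 rose between days 4 and 7 in WT cultures (0.313%) and 0 fell in limma at an adjusted p under 0.05. At an unadjusted p under 0.05 there were 15 (4.7%), 8 higher and 7 lower at day 7. On whole reads recovered from the same values, edgeR called 1, limma-voom 1 and DESeq2 2 (0.627%). The RNA called in each of these tests was Gm26205, a small nucleolar RNA gene in Rpl6, and DESeq2 added miR-375-3p. The remaining named small RNAs are therefore described by their values and intervals, not as changes.

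The day 4 and day 7 libraries did not overlap for 70 small RNAs that were higher at day 7 (21.9%) and 36 that were lower (11.3%). The median log2 difference was 0.02, the middle 50% lay between -0.24 and 0.34, and the 5th and 95th percentiles were -0.66 and 0.89. The shift per day itself brings this median near 0, and without the shift it was 0.596. Estimates reached 2-fold for 11 RNAs upward and 4 downward. Not tested were the 479 small RNAs with a day 4 value and none at day 7. Falls to a low level are therefore missing from these counts, while rises from a low level are not. With 2 libraries a day the median SE was 0.42, a typical 95% interval of ± 0.9, and 88 small RNAs (27.6%) had an interval that lay inside a 2-fold change in both directions. Among the 35 with a mean level of at least 1000, 20 had such an interval. Among the 209 with a mean under 100, 33 did.

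**Figure D1:**
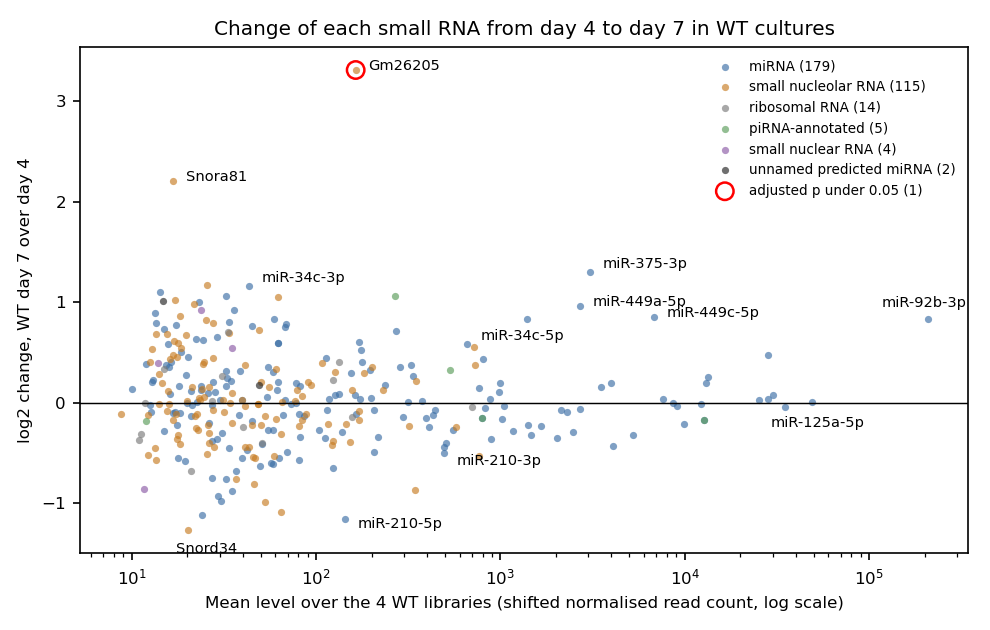
Log2 change between day 4 and day 7 in WT cultures (vertical axis) against the mean level over the 4 WT libraries (horizontal axis, shifted normalised read count, log scale) for the 319 tested small RNAs, coloured by class. Most points lie close to 0, Gm26205 at log2 3.31 stands above them and is the 1 RNA with an adjusted p under 0.05 (red ring), and the 4 labelled arms of the miR-34 and miR-449 families lie between 0.83 and 1.16.

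The sequences on which the results turn are shown here so that members of a family can be set side by side. Mature miRNA sequences are from RefSeq (GRCm38.p6), where 163 of the 180 miRNAs matched by name, and capitals mark the seed. miR-34c-5p and miR-375-3p were not among the matches, so their sequences are not shown and their seeds were not compared. The seed GGCAGUG is common to miR-34a-5p and to the 5p arms of miR-449a and miR-449c, and the 3p arms of miR-34b and miR-34c share AUCACUA.
miR-34a-5p: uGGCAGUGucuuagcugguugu
miR-449a-5p: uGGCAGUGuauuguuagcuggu
miR-449c-5p: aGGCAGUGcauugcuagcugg
miR-34b-3p: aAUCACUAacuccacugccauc
miR-34c-3p: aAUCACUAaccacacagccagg

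The seed AUUGCAC is shared by miR-92b-3p, the most abundant small RNA in all 4 libraries, and by miR-92a-3p and miR-25-3p, which come from other clusters.
miR-92b-3p: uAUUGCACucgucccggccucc
miR-92a-3p: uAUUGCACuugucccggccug
miR-25-3p: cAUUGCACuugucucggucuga

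Both arms of the miR-210 hairpin are shown because they had the lowest median of the miRNA lists with at least 2 tested members, and their seeds differ.
miR-210-5p: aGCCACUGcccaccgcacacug
miR-210-3p: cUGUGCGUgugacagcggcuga

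Gm26205 is shown in full as the RNA that passed the test. It lies on chromosome 5, plus strand (mm10, the build of GRCm38), and its capitals mark an ACA placed 3 bases before the 3′ end, the position of the box that names the H/ACA class of small nucleolar RNAs.
Gm26205, chr5:121205010-121205143: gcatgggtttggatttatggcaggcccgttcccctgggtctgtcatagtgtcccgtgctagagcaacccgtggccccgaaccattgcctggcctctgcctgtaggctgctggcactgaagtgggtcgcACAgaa

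Gm26205 stood at 13.2 and 59.9 in the day 4 libraries (13 and 32 reads) and at 268 and 314 in the day 7 libraries (441 and 305 reads). Both day 7 libraries lay above both day 4 libraries, and the 2 day 4 libraries differed more from each other than the 2 day 7 libraries did. The log2 change was 3.31 (SE 0.64, 95% interval 1.94 to 4.68, adjusted p = 0.0403 in limma). The level was 12.1 and 12.99 at day 0 and 30.5 and 35.1 at day 14, so the day 7 libraries were the highest of the 8 WT libraries. In the KO cultures it was 27.04 and 57.7 at day 4 and 22.4 and 56.2 at day 7, with overlapping libraries and a log2 change of -0.15.

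The WT step of Gm26205 exceeded the KO step by 3.46 on the log2 scale (95% interval 1.52 to 5.4). This difference did not pass in limma (unadjusted p = 0.00177, adjusted p = 0.566). In a fit blocked by replicate number inside each genotype it did (adjusted p = 0.0242). Differences between WT replicates 2 and 3 correlated weakly between days 4 and 7 (r = 0.1). The WT minus KO difference did not pass in limma with TMM factors (adjusted p = 0.658) or in the 8 libraries of days 4 and 7 (adjusted p = 0.366). With 1 library left out it ran from log2 2.41 (without WT day 4 replicate 2) to 4.51 (without WT day 4 replicate 3). The annotation places the gene inside an exon of a retained-intron transcript of Rpl6, the gene of a large-subunit ribosomal protein, neither coding nor untranslated. Counting by strand is not given in the sources used here, and fragments of that transcript cannot be told apart from the small nucleolar RNA. The call of the WT step was lost without WT day 4 replicate 2 (log2 2.26, adjusted p = 0.616), without WT day 7 replicate 2 (log2 3.42, adjusted p = 0.377) and without WT day 7 replicate 3 (log2 3.19, adjusted p = 0.639), and without WT day 4 replicate 3 it held at log2 4.36 (adjusted p = 0.00441). It was also lost with 3 of the 7 other scalings, as given in the closing section.

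Of the 11 arms listed for the miR-34 and miR-449 families, 9 are in the table and 6 had values at both days. The 6 were higher at day 7 with a median log2 difference of 0.84, against 0.02 over all 319, and in 5 of them the libraries of the 2 days did not overlap (21.9% of all 319 were separated upward). The miR-34b and miR-34c arms come from neighbouring hairpins and the miR-449 arms from the same intron, so they are not independent of each other. 0 of the 6 passed in limma at an adjusted p under 0.05, 3 had an unadjusted p under 0.05, and edgeR, limma-voom and DESeq2 called 0 of them. Their summed level was 8004 and 7788 at day 4 and 14693 and 14042 at day 7. These are bulk cultures, in which more multiciliated cells and more of these miRNAs per cell cannot be told apart.

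miR-34c-5p, whose hairpin on chromosome 9 lies beside that of miR-34b, was at 1037 and 956 at day 4 and at 1554 and 2021 at day 7. The 2 days did not overlap, and the log2 difference was 0.83 (95% interval 0.29 to 1.38, adjusted p = 0.439 in limma). The family members with an unadjusted p under 0.05 were this arm, miR-34c-3p and miR-449c-5p. Its day 0 libraries, at 1088 and 931, were at the day 4 level, and its day 14 libraries were the highest at 3770 and 3100.

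The passenger arm miR-34c-3p was at 34.5 and 18.7 at day 4 and at 44.3 and 76.3 at day 7, a log2 difference of 1.16 (0.24 to 2.09, adjusted p = 0.887). miR-34b-3p, from the neighbouring hairpin, was at 135 and 148 and then at 158 and 261, a log2 difference of 0.52 (-0.16 to 1.2, adjusted p = 0.988). For both, the higher values at day 7 were those of replicate 3, and with 1 library left out the differences ran from 0.74 to 1.59 and from 0.17 to 0.88. miR-34a-5p, encoded on chromosome 4 and known as a p53 target, was at 44.6 and 16.8 and then at 34.01 and 35.05 (log2 0.32, -0.71 to 1.34), and its libraries overlapped. Its sign changed without WT day 4 replicate 3 (log2 -0.36), and without WT day 4 replicate 2 its log2 difference was 0.99.

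The miR-449 hairpins lie in an intron of Cdc20b on chromosome 13, a gene expressed in cells making many centrioles. miR-449a-5p was at 2164 and 1527 at day 4 and at 3896 and 3223 at day 7, a log2 difference of 0.96 (-0.32 to 2.24, adjusted p = 0.994). miR-449c-5p was at 4589 and 5121 and then at 9007 and 8425, a log2 difference of 0.85 (0.00 to 1.69, adjusted p = 0.932). Neither overlapped between the days. Both had been near the detection limit at day 0, at 14.1 and 1.44 for miR-449a-5p and at 6.04 and 8.66 for miR-449c-5p. On the log scale, though not in level units, most of their climb therefore lay before day 4. At day 14 miR-449a-5p was at 4985 and 3467, overlapping day 7, and miR-449c-5p was at 5625 and 5802, below both of its day 7 libraries. An unnamed predicted miRNA in the same intron was at 17.2 and 3.74 and then at 12.1 and 25.8, with overlapping libraries.

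miR-872, in an intron of Ift74, the gene of a subunit of the intraflagellar transport machinery that builds cilia, had its 3p arm at 28.4 and 20.6 at day 4 and at 48.0 and 38.1 at day 7, a log2 difference of 0.80 (-0.19 to 1.78). Its 5p arm overlapped between the days, with a log2 difference of 0.09 (-1.52 to 1.69).

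In KO cultures the estimates for arms of the miR-34 and miR-449 families differed in sign, and no test compared the families. The log2 difference between KO days 4 and 7 was 1.0 for miR-449a-5p and 0.80 for miR-449c-5p, beside 0.96 and 0.85 in WT. It was 0.21 for miR-34c-5p, -0.35 for miR-34c-3p, -0.12 for miR-34b-3p and -0.29 for miR-34a-5p, beside 0.83, 1.16, 0.52 and 0.32 in WT. The WT step minus the KO step was 1.51 (95% interval 0.21 to 2.82) for miR-34c-3p and 0.62 (-0.15 to 1.39) for miR-34c-5p, with an adjusted p of 0.997 in limma for each. For miR-449a-5p it was -0.03 (-1.84 to 1.77), an interval that also holds differences above 2-fold. No member of these families passed the test of the difference.

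Over all 319 small RNAs, 0 passed the test of the WT step minus the KO step in limma (0.0%) and 8 had an unadjusted p under 0.05 (2.51%). The 1 that passed with the replicate block was Gm26205. The KO step alone had 0 of 321 (0.0%) in limma and 8 (2.49%) at an unadjusted p under 0.05. No other tool was run on these 2 contrasts.

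**Figure D2:**
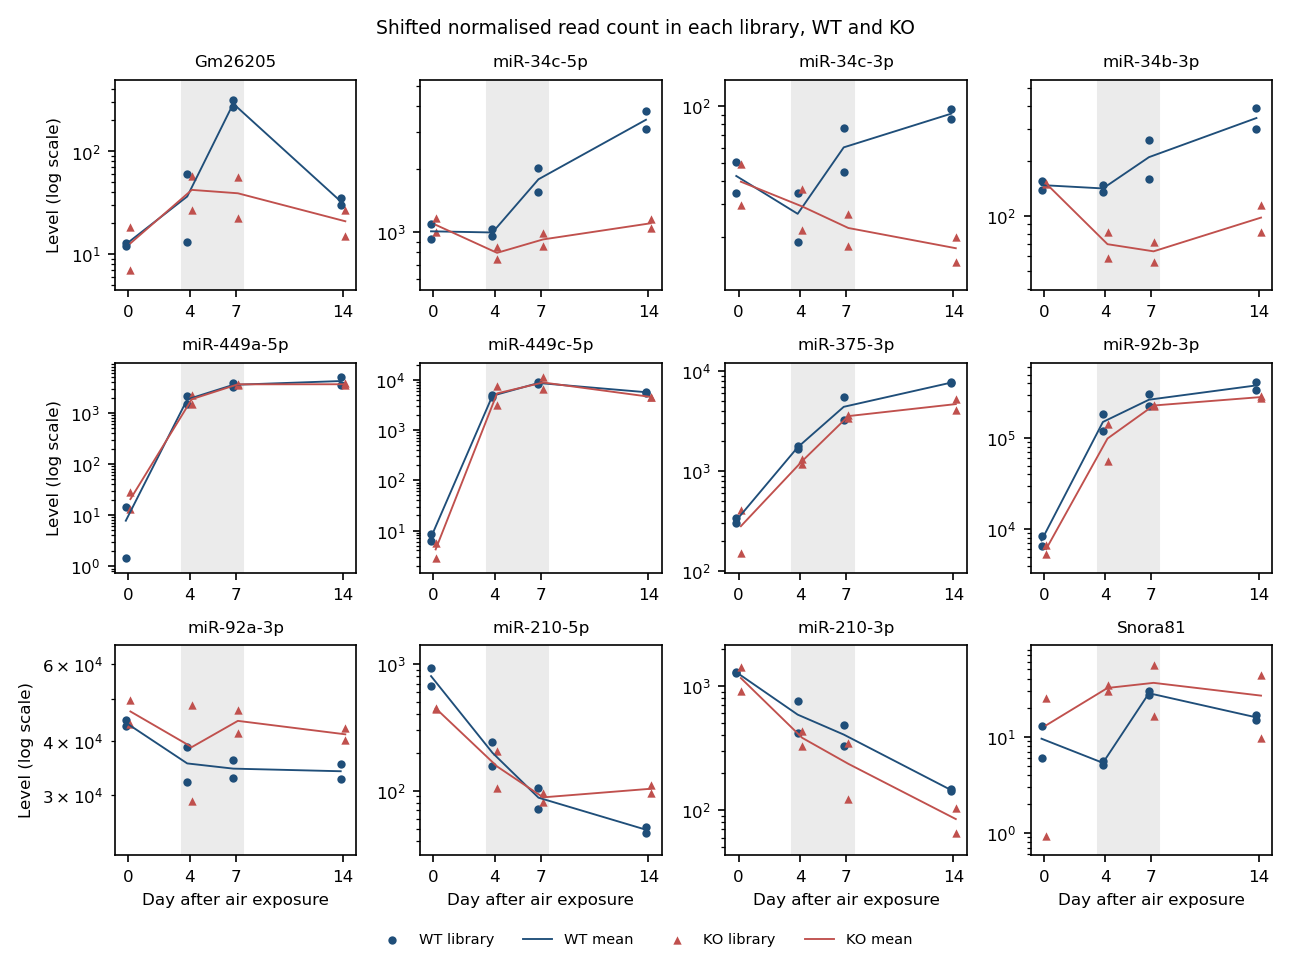
Shifted normalised read count (vertical axis, log scale) at days 0, 4, 7 and 14 after air exposure (horizontal axis) in each WT library (blue circles) and KO library (red triangles). Lines join the group means (n = 2 libraries per group and day), and days 4 to 7 are shaded. Gm26205 peaks at day 7 in WT at 268 and 314. On the log scale the miR-449 arms and miR-92b-3p have made most of their climb by day 4. WT miR-34c-5p is at 1037 and 956 at day 4 and at 1554 and 2021 at day 7.

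miR-375-3p, known from neuroendocrine and secretory cells, was at 1670 and 1791 at day 4 and at 3243 and 5562 at day 7. The 2 days did not overlap, the day 7 libraries differed more from each other, and the log2 difference was 1.3 (95% interval 0.47 to 2.12, adjusted p = 0.439 in limma), the highest of the 35 small RNAs with a mean level of at least 1000. DESeq2 called it (adjusted p = 0.0288). In KO cultures the log2 difference was 1.49 (adjusted p = 0.49), and the 2 steps differed by -0.20 (-1.36 to 0.96). It stood at 336 and 305 at day 0 and at 7728 and 7665 at day 14, so each WT day lay above the one before.

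miR-92b-3p, encoded on chromosome 3, was at 119288 and 182678 at day 4 and at 224321 and 305886 at day 7. The libraries did not overlap, and the log2 difference of 0.83 had an interval of -0.03 to 1.68 (adjusted p = 0.932 in limma). It held 24.97% and 32.3% of the summed values of the 321 small RNAs at day 4 and 37.1% and 43.8% at day 7. Its passenger arm miR-92b-5p was at 39.5 and 59.9 and then at 60.7 and 112 (log2 0.75, -0.40 to 1.90). The day 0 level of the 3p arm, 6631 and 8472, lay far below.

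The miRNAs that share the seed of miR-92b-3p did not share its values. miR-92a-3p, which is made from the proliferation-linked miR-17 to miR-92a cluster and its paralogue, was at 32194 and 38822 at day 4 and at 32871 and 36208 at day 7 (log2 -0.04, -0.66 to 0.59). miR-25-3p, encoded in Mcm7, was at 808 and 857 and then at 680 and 828 (log2 -0.15, -0.81 to 0.51). Both intervals lay inside a 2-fold change. Over the 9 tested arms of the miR-17 to miR-92a and miR-106b clusters 5 were higher and 4 lower, with a median of 0.21.

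miR-210, known as the miRNA induced by low oxygen, was lower at day 7 in its 5p arm, which stood at 155.1 and 243.3 at day 4 and at 71.7 and 104 at day 7. The log2 difference was -1.16 (95% interval -1.91 to -0.41, adjusted p = 0.439 in limma), and the libraries did not overlap. The more abundant 3p arm was at 419 and 756 and then at 482 and 330 (log2 -0.50, -1.44 to 0.45), and its libraries overlapped (-0.92 to -0.07 with 1 library left out). The KO differences were -0.73 for the 5p arm and -0.86 for the 3p arm. The 5p arm went from 671 and 938 at day 0 to 46.3 and 51.7 at day 14, and the 3p arm from 1277 and 1303 to 147.6 and 141.9.

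**Figure D3:**
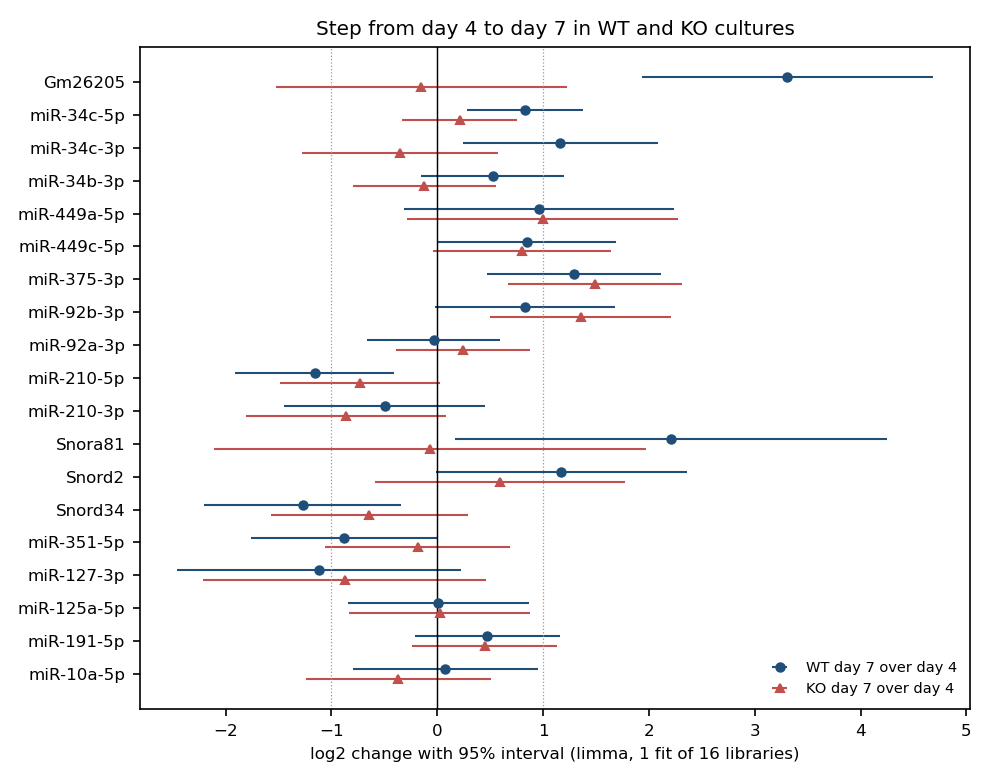
Log2 change between day 4 and day 7 (horizontal axis) with its 95% interval in WT (blue circles) and KO cultures (red triangles) for 19 small RNAs, from 1 limma fit of 16 libraries, with 2-fold changes as dotted lines. The WT and KO intervals overlap for 18 of them and not for Gm26205 (WT 1.94 to 4.68, KO estimate -0.15), a difference whose adjusted p was 0.566.

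The markers of basal and stratified epithelium, the cells from which the multiciliated cells arise, were 2 higher and 6 lower of 8 tested, with a median log2 difference of -0.14 and a highest of 0.14. miR-205-5p, a miRNA of basal cells, was at 12591 and 8549 at day 4 and at 10687 and 7547 at day 7 (log2 -0.21). miR-31-5p was at 1161 and 831 and then at 959 and 613, and miR-222-3p at 452 and 694 and then at 398 and 430 (log2 -0.44, -1.15 to 0.28). The most abundant member, miR-27b-3p, had a log2 difference of -0.01, and the largest upward difference, 0.14, was that of miR-203-3p. Of the 8 tested, the libraries of miR-222-3p alone did not overlap. The miR-200 family, which maintains the epithelial state, had 4 higher and 4 lower of 8, with a median of 0.08. Its members ranged from -0.32 to 0.58, the latter for miR-200a-3p at 607 and 440 and then at 955 and 625.

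Of 9 let-7 arms, miRNAs known for rising with differentiation in many tissues, 2 were higher and 7 lower at day 7, with a median of -0.23. let-7e-5p, in an intron of Spaca6, had the lowest value, at 3787 and 5711 and then at 3468 and 3417 (log2 -0.43, -1.10 to 0.24). The KO median of the same arms was 0.26, with 7 higher, and no let-7 arm passed the test of the difference. The 3 miR-181 arms were lower with a median of -0.35, though miR-181c-5p turned to 0.24 without WT day 4 replicate 2 and was at -0.95 without replicate 3. The 8 miR-30 arms, 3 higher and 5 lower, had a median of -0.11. The 3 measured arms of the miR-191 and miR-425 cluster were higher with a median of 0.47. The abundant miR-191-5p was at 25421 and 21945 and then at 35187 and 30550 (log2 0.47, -0.21 to 1.16).

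Other abundant miRNAs differed less. miR-125a-5p, of rank 2 in level at both days, was at 42156 and 56068 at day 4 and at 49103 and 48869 at day 7 (log2 0.01, -0.84 to 0.87). Its seed relatives spread to both sides, with miR-125b-5p at log2 0.59 (-1.06 to 2.24) and miR-351-5p at -0.88 (-1.76 to -0.01, 48.7 and 43.0 and then 26.1 and 22.7). miR-10a-5p, from the Hox clusters, had a log2 difference of 0.08 (-0.80 to 0.95). miR-22-3p moved in rank from 12 to 8 with a log2 difference of 0.26 (-0.78 to 1.3). These intervals do not show that the levels were the same.

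Several low miRNAs had estimates near 2-fold with wide intervals. miR-425-3p was at 20.3 and 18.7 and then at 64.4 and 26.8 (log2 1.06, -0.07 to 2.18), and miR-6236 at 15.2 and 14.97 and then at 28.5 and 34.01 (log2 1.0, -0.72 to 2.71). On the low side, miR-127-3p, from the imprinted cluster between Dlk1 and Dio3, was at 50.7 and 18.7 and then at 15.2 and 12.4 (log2 -1.12, -2.46 to 0.22). Leaving out 1 library moved these values, for miR-425-3p to 0.44 without WT day 7 replicate 2 and to 1.67 without replicate 3, and for miR-127-3p to -0.42 without WT day 4 replicate 2 and to -1.81 without replicate 3. The estimates of miR-1306-5p, miR-421-3p and miR-1247-5p were -0.98, -0.93 and -0.76, and their intervals included 0. With 1 library left out they ran from -1.43 to -0.53, from -1.36 to -0.50 and from -1.19 to -0.33.

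**Figure D4:**
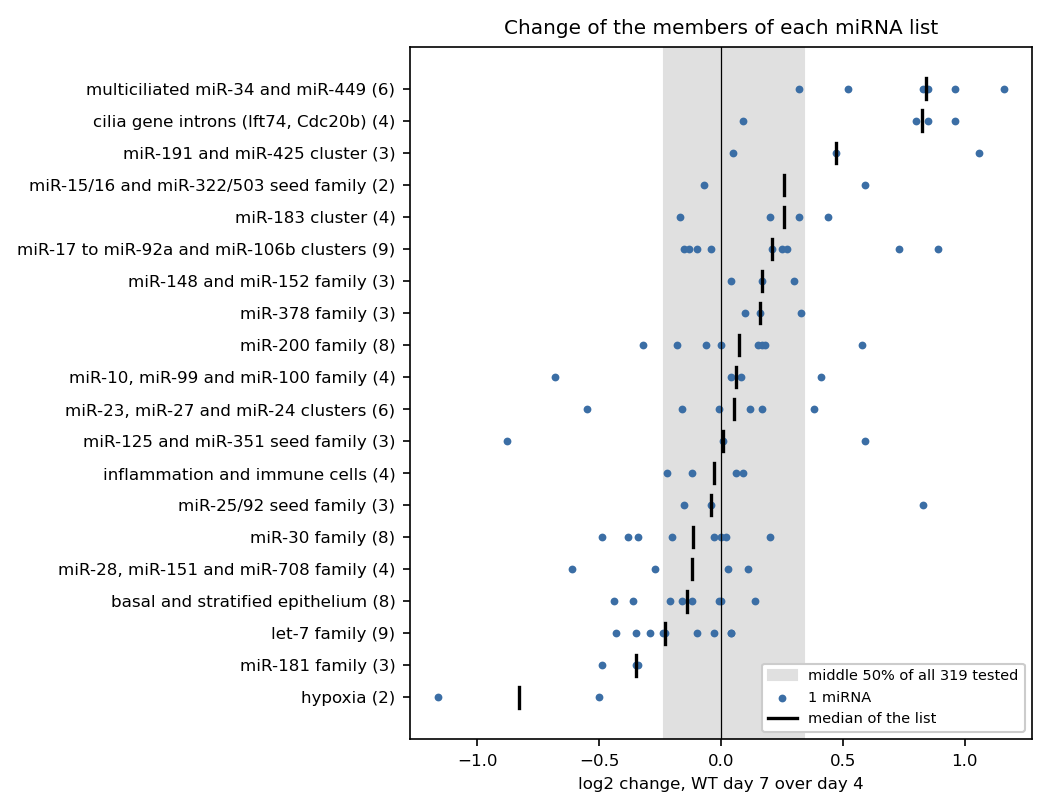
Log2 change between day 4 and day 7 in WT cultures (horizontal axis) of each tested member (points) and the median (black bar) for the 20 miRNA lists with at least 2 tested members, with the number tested in brackets and the middle 50% of all 319 small RNAs shaded. The miR-34 and miR-449 list has the highest median (0.84) and the 2 arms of miR-210 the lowest (-0.83), and the cilia gene intron list, median 0.82, holds 2 of the same miRNAs.

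Listed markers of mesenchymal, endothelial, erythroid and muscle cells, which such cultures could also hold, were low or absent. Of the mesenchymal list 5 of 8 are in the table and 3 of these had 0 or no value at day 4, and the 1 tested, miR-143-3p, was at 38.5 and 29.9 at day 4 and at 23.7 and 16.5 at day 7. The endothelial arms miR-126a-3p and miR-126a-5p and the erythroid miR-451a had 0 or no value at day 4. miR-486-5p, miR-486-3p and miR-142-5p, in the table under names outside the lists, had no value at day 7. Of the muscle list 2 of 4 are in the table, with a highest day 4 value of 4.06. Of 4 tested immune and inflammation miRNAs 2 were higher and 2 lower, with a median of -0.03 and a summed level of 2203 and 1398 at day 4 and of 1652 and 1435 at day 7. The most abundant of them, miR-21a-5p, is also made by epithelium.

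Both arms were tested for 37 hairpins, and in 23 of these the 2 arms had the same sign. Both arms differed by at least 0.5 in the same direction for 3 hairpins, miR-34c, miR-92b and miR-339. miR-339-3p was at 36.5 and 29.9 and then at 57.7 and 55.7 (log2 0.76), and miR-339-5p at 8.11 and 24.3 and then at 19.4 and 21.6 (log2 0.50). For miR-99b, the abundant 5p arm had a log2 difference of 0.04 (-1.24 to 1.33). Its 3p arm, miR-99b-3p, was at 140 and 165 and then at 93.5 and 98.9 (log2 -0.65, -1.18 to -0.12, adjusted p = 0.887 in limma), an interval inside that of the 5p arm.

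Of the 115 small nucleolar RNAs tested, 57 were higher and 58 lower at day 7, with a median log2 difference of 0.00, and 1 rose. The next in size after Gm26205 was Snora81, hosted by Eif4a2, the gene of a translation initiation helicase. It was at 5.07 and 5.61 at day 4, from 5 and 3 reads, and at 29.8 and 26.8 at day 7, from 49 and 26 reads (log2 2.21, 0.16 to 4.25, adjusted p = 0.932 in limma). The other tested small nucleolar RNA of that host, Snord2, was at 20.3 and 11.2 and then at 34.6 and 36.1 (log2 1.17, -0.01 to 2.36). Neither overlapped between the days. Both day 4 libraries of Snora81 lay below the value set by the filter, so it entered the test through its day 7 libraries alone. A row equally low at both days would have been left out. The selection thus favours a rise for such a row, and the estimate and interval of Snora81 carry that limit. In KO cultures Snora81 overlapped, at 34.2 and 29.99 and then at 16.4 and 56.2, and the difference between the steps was 2.27 (-0.62 to 5.17). Gm22362, in Ybx3, and Snord67, in Ckap5, had estimates of 1.05 (-0.88 to 2.98) and 1.02 (-0.50 to 2.54).

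Among small nucleolar RNAs that were lower at day 7, Snord34, in Rpl13a, was at 33.5 and 24.3 and then at 15.2 and 8.25 (log2 -1.27, -2.20 to -0.34, adjusted p = 0.692 in limma). Snord100, in Rps12, was at 67.9 and 72.97 and then at 34.6 and 35.05 (log2 -0.99, -2.13 to 0.14). Mir5117, listed as a small nucleolar RNA in the table and hosted by Gas5, was at 119 and 59.9 and then at 35.2 and 43.3 (log2 -1.09, -2.16 to -0.03). The libraries of all 3 did not overlap.

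Gas5, a noncoding host gene whose transcript accumulates when growth slows, held 7 tested rows, of which 5 were lower, 4 of them without overlap (11.3% of all 319 were separated downward), with a median of -0.39. In KO cultures their median was 0.24 with 4 higher. Snhg1, another noncoding host, held 8 tested rows, 5 higher and 3 lower, with a median of 0.11. Rows of 1 host share a transcript and are not independent of each other.

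The other classes had few members. Of 14 ribosomal RNA fragments 6 were higher and 8 lower (median -0.02), with 5S rows at both ends, n-R5s71 at log2 0.70 (-0.24 to 1.65) and n-R5s28 at -0.68 (-1.50 to 0.14). Of 4 tested small nuclear RNAs 3 were higher (median 0.47), led by Rnu11, a minor spliceosome RNA, at 25.3 and 9.36 and then at 29.8 and 30.9. Of 5 piRNA-annotated rows 2 were higher. The highest of these, DQ726397, was at 128 and 217 and then at 269 and 452 (log2 1.06, -0.30 to 2.43).

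A pair of piRNA-annotated rows had the values of miRNAs. DQ562379 differed from miR-182-5p by at most 1.85% in each of the 16 libraries, and DQ695413 from miR-25-3p by at most 0.617%. Their log2 differences were -0.17 and -0.15, as for those miRNAs. miRNAs held 94.6% and 95.5% of the summed values at day 4 and 96.4% and 96.1% at day 7. Small nucleolar RNAs held 2.03% and 1.53% and then 1.41% and 1.43%, and piRNA-annotated rows, including these 2, 3.10% and 2.65% and then 2.00% and 2.21%. The shares are given as values, and no test was run on them.

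A further 479 small RNAs had a value at day 4 and none at day 7, among them 250 miRNAs and 121 small nucleolar RNAs. They were low at day 4, with a highest mean of 21.4 and a median of 1.87, and held 0.314% and 0.254% of the summed day 4 values. The lowest mean level of a row with a day 7 value was 12.4 over the 4 WT and KO libraries of that day. A fall to a low level at day 7 is therefore not seen in this comparison. miR-34b-5p, the other arm of the miR-34b hairpin, was among these rows, at 15.2 and 16.8 at day 4 and at 42.9 and 25.04 at day 14. The remaining miR-34 and miR-449 arms without a day 7 value were miR-449a-3p and miR-449b.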

How the data were processed

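Small RNA libraries of mouse tracheal epithelial cultures, WT and lacking p73, were analysed from the deposited table. Per the labels' protocols, a column kit was used to extract RNA and a TruSeq RNA kit to make the libraries. Per the submitters' processing notes, the build was mm10 and DESeq2 was used, with no version. How reads were aligned, annotated and counted is not stated in the labels. The table is headed as read counts, but the deposited values are a normalised signal. In each library 100% of low values came out as whole multiples of 1 step (tolerance 0.0055 in deposited units, steps searched between 0.3 and 2.2), and reads were recovered from these steps. Without molecular identifiers, PCR copies of 1 molecule count more than once, so read numbers can overstate the number of molecules and carry more than counting error.

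Because the authors normalised days separately, the days were brought together first: log2 shifts of -0.2505 for day 0, -0.1841 for day 4, 0.4036 for day 7 and 0.0853 for day 14 were taken off, each a median over 287 rows above 0 in all 16 libraries. 5 predicted rows with the values of a named miRNA were left out. A signal called for limma (3.58.1, R 4.3.3), run on log2(value + 1) allowing for the trend of variance with level, 8 groups of 2 libraries in 1 fit, a filter of 10 in at least 2 of 4 libraries, and a two-sided adjusted p threshold of 0.05. A fold change on this scale is understated for low rows. The median degrees of freedom after shrinkage were 14.7. The script was tested on simulated data.

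Named small RNAs were those called, the 10 largest non-overlapping rises and falls, the 5 most abundant, the miR-34 and miR-449 arms, the highest and most different member of each other list, and the largest rise and fall of each other class, 64 in all. Where the text gives further ones (such as miR-205-5p, miR-31-5p, miR-872, miR-99b and miR-339), they were chosen after their values were seen. The comparison, lists and tests were chosen with earlier results of these data known. Whether replicate numbers pair libraries was checked by correlating deviations over 293 rows: r was 0.3 to 0.46 between KO days and 0.08 to 0.26 between WT days (0.1 for days 4 and 7), so the blocked value stands beside the WT minus KO difference. Alternatives were edgeR 4.0.16, DESeq2 1.42.0 and limma-voom on recovered reads of the 8 libraries of days 4 and 7, other scalings, filters, pseudocounts and variance models, a replicate block, and each library left out.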

Additional observations from a re-analysis of the deposited data

How the results depend on the processing

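The number of small RNAs called in WT was 1 (Gm26205) in the reported fit, and 1 with TMM or DESeq2 size factors, a shift from miRNAs alone, no filter, a filter of 50, a pseudocount of 0.5 or 5, the 4 libraries alone, robust shrinkage, a threshold of 0.1, edgeR and limma-voom. It was 0 with upper-quartile factors (Gm26205 at log2 3.09, adjusted p = 0.099), library totals (3.00, 0.089), library totals without miR-92b-3p (3.26, 0.0714) and no variance trend (3.31, 0.0809), 2 with DESeq2 on whole reads, and 4 with no shift between days (Gm26205, miR-34c-5p, miR-375-3p and miR-5099). Leaving out 1 library gave 0 to 1. With the replicate block in WT the count was 1. The weak correlations between WT days do not settle whether replicate numbers pair the libraries. Across the 319 tested the median log2 difference became -0.293 when scaled to library totals, -0.203 with upper-quartile factors and 0.596 unshifted, so directions near 0 hold relative to the median of each scaling. Over its 22 alternatives Gm26205 ran from log2 2.26 to 4.36 (adjusted p 0.000291 to 0.639), and it was called in 15. miR-375-3p ran from 0.91 to 1.88 (adjusted p 0.0221 to 0.973) and was called in 2.

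In KO the count was 0, 2 with no shift between days (miR-375-3p and miR-92b-3p) and 0 to 1 with 1 library left out (miR-92b-3p without KO day 4 replicate 3). For the WT step minus the KO step it was 0, 1 with the replicate block and 0 to 1 with 1 library left out, in both cases Gm26205. Of the 64 named small RNAs, 24 changed sign under at least 1 alternative, 14 of them with no shift and 9 with library totals. With a filter of 50, 9 of 13 hairpins had both arms with the same sign. The causes of these differences were not tested. The comparison is limited by 2 libraries a day and by low rows that are blank at day 7.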
